A study of Homo sapiens with 9 samples.

Results

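The genes described here are those of TGF-beta and bone morphogenetic protein (BMP) signalling, together with the tolloid protease gene TLL2. They were chosen by gene symbol from the deposited expression table: the SMAD, BMP, GDF, TGFB, INHB, ACVR, BMPR, TGFBR, LTBP and TLL families and CHRD, FST, GREM1, BAMBI and ENG. The rule found 50 of the 25084 genes in the table, and it used no measured value; NOG, which the rule also names, is not analysed here. RNA was sequenced from LAN5, an established human neuroblastoma cell line with amplified MYCN, 72 h after electroporation of small interfering RNA (siRNA, a short RNA that directs the breakdown of a matching transcript) and culture in regular growth medium. Each group held 3 libraries: siCTR (control siRNA), siMYCN (labelled siMYCN_2, directed at MYCN) and siHAND2 (labelled siHAND2_3, directed at HAND2). The labels name a single siRNA for each target and do not say whether replicates came from separate cultures, so p-values measure only the spread between these libraries, which may be technical. By its title, the series looked for genes under HAND2 and MYCN control in these cells.

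Ligands of this family are secreted dimers that assemble type II and type I receptor kinases. The activated type I receptor phosphorylates SMAD proteins, SMAD2 and SMAD3 after TGF-beta or activin and SMAD1, SMAD5 and SMAD9 after BMP, which enter the nucleus with SMAD4. Latent TGF-beta binding proteins (LTBPs) hold TGF-beta in the matrix, secreted antagonists such as gremlin and follistatin block ligands, and the inhibitory SMADs and BAMBI limit the signal in the cell. Tolloid proteases (BMP1, TLL1 and TLL2) are astacin-type metalloproteases of the matrix that process procollagens or cleave ligand inhibitors and propeptides. BMP signals are known for their part in forming the sympathetic nervous system, the lineage of neuroblastoma, where HAND2 acts downstream of them.

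The promoters of 4 members that are described below are shown first. All 4 were higher in siHAND2 and 1 of them, TLL2, was also the member with the largest rise in siMYCN. They are a pick from the 17 members called higher in siHAND2, so the motifs among them are no measure of that set. Each is the 250 bases upstream of the RefSeq start (GRCh38.p14), 5′ to 3′ on the strand of the gene, with capitals marking the 3 hexamers searched, which are named after the sequences. These are forms of the E-box, the motif class of helix-loop-helix factors such as MYCN and HAND2, and other forms of it were not searched and stand in lower case. TLL2 lies at chr10:96513927-96514176 on the minus strand, INHBA at chr7:41703091-41703340 on the minus strand, TGFB3 at chr14:75983012-75983261 on the minus strand and TGFBR2 at chr3:30606106-30606355 on the plus strand.
TLL2: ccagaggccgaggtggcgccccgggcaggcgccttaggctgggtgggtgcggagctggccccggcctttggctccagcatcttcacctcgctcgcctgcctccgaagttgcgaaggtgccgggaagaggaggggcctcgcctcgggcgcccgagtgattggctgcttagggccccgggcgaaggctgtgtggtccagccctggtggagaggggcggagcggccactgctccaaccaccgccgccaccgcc
INHBA: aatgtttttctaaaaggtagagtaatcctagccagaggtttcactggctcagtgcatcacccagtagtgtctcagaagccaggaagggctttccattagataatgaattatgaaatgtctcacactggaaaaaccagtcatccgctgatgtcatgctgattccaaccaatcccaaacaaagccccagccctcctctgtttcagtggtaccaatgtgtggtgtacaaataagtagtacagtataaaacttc
TGFB3: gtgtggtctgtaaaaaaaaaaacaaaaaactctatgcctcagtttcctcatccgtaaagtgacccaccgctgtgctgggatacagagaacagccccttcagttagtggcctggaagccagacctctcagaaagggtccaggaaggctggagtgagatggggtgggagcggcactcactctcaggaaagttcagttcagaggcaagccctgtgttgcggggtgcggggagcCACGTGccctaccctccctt
TGFBR2: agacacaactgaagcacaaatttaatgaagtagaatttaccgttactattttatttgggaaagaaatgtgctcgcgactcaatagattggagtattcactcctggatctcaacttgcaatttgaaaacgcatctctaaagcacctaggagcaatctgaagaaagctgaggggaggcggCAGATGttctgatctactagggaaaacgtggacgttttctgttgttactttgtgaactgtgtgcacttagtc
The motifs searched were CACGTG, which reads the same on both strands, and CATCTG with its other-strand form CAGATG, in windows from 250 bases before to 50 after the start. TGFB3 holds CACGTG at position -20 and TGFBR2 holds CAGATG at position -72, counted from the start, whereas the letters were not in the windows of TLL2 or INHBA. LTBP3, also called higher in siHAND2 and not shown, holds CATCTG at position -190. Of the 45 members with a promoter in the RefSeq table, 6 (13.3%) held CACGTG, beside 7.43% of all 27305 promoters, and 6 (13.3%) held CATCTG or CAGATG, beside 14.8% of all. Apart from TGFB3, those with CACGTG were TGFB2, not tested, and ACVR1B, SMAD1, SMAD3 and SMAD9, called in no comparison as fitted here. The RefSeq starts of INHBA, TGFB3 and TGFBR2 differ from the gene boundaries in the deposited table (30606601 for TGFBR2), so the windows and positions hold for the RefSeq start alone. These matches describe sequence only.

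The values are CPM, the reads of a gene scaled to the same total in each library. Read from the spacing of low CPM values, the depth was 21.1 M to 32.7 M assigned reads per library, so 1 CPM stood for 21.1 to 32.7 reads and carried a counting error of 17.5% to 21.8%. MYCN averaged 1842 ± 54.2 CPM with siCTR, 1289 ± 47.0 with siMYCN and 914 ± 48.4 with siHAND2, and HAND2 averaged 501 ± 13.7, 571 ± 15.9 and 272 ± 7.65 (SD, n = 3 libraries). The third siHAND2 library stood apart from the others of its group, with a chi-square per degree of freedom over genes of 8.93 and 8.17 against the other siHAND2 libraries, which differed from each other by 3.44. Each siRNA thus went with a lower level of its target in 3 of 3 libraries. MYCN was also lower in siHAND2, and further below siCTR there than in siMYCN, whereas HAND2 was higher in siMYCN. The part of the lower MYCN level in the siHAND2 differences was not tested. Of 10 noradrenergic and neuronal neuroblastoma markers, such as DBH and CHGA, all were in the table and none stayed under 1 CPM in every library, and their sum ran from 2133 to 2273 CPM with siCTR, 2717 to 2802 with siMYCN and 2243 to 2368 with siHAND2. Within that sum, 8 of 9 tested markers were higher in siMYCN (limma), beside 24.5% of all genes tested. In siHAND2 DBH, TH and DDC were lower and STMN2, NEFM and GAP43 higher, beside 11.8% and 18.1% of all genes. DBH averaged 263, 344 and 130.1 CPM in the 3 groups. Endothelial markers (5 of 6 in the table), immune markers (3 of 6) and Schwann or glial markers (5 of 6) summed to at most 1.21, 0.724 and 3.34 CPM in any library. Stromal markers (9 of 10 in the table) summed to 295 to 299 CPM with siCTR, 354 to 357 with siMYCN and 628 to 712 with siHAND2, with PDGFRA the largest part, at 121 ± 4.49, 144 ± 3.49 and 341 ± 27.7 CPM. Of 8 tested stromal markers 6 were higher in each knockdown (limma), beside 24.5% of all genes in siMYCN and 18.1% in siHAND2. THY1 was higher in siMYCN and lower in siHAND2. In these bulk libraries a change in the share of cells that express a gene and a change in RNA per cell cannot be told apart.

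Of the 50 members, 36 reached 1 CPM in 3 or more of the 9 libraries and were tested, and 14 were not. Among the 14 were the type I receptors ACVR1C and ACVRL1, the ligands BMP4, BMP6, TGFB2, GDF6, GDF7, GDF9, GDF10, INHBC and INHBE, the antagonists CHRD and FST, and TLL1. TGFB3 and TGFBR3 lie just inside the limit, with 3 libraries at 1 CPM or more, all of them siHAND2, so that both passed only through the group in which they are high. FST lies just outside it, with 2 such libraries: it stood at 0.122, 0.225 and 0.38 CPM with siCTR, at 0.403, 0.345 and 0.206 with siMYCN and at 1.55, 0.996 and 1.20 with siHAND2. TGFB2 reached at most 0.876 CPM, in siHAND2.

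In siCTR the receptors and SMADs of both branches were present, and the BMP-type SMAD9 stood highest. Levels of different genes are compared here as CPM per kb of exon, using all exons annotated for a gene, which understates genes with rare long isoforms such as SMAD2. SMAD9 stood at 43.5 CPM per kb, SMAD5 at 18.7, SMAD4 at 9.86, SMAD3 at 6.81, SMAD2 at 5.30 and SMAD1 at 1.04. Among type I receptors the order was TGFBR1 (18.9 CPM per kb), BMPR1A (11.1), ACVR1B (10.5), BMPR1B (6.20) and ACVR1 (0.662), and the ranges of BMPR1A and ACVR1B came close without overlapping. Among type II receptors ACVR2B, an activin receptor, led with 16.6 CPM per kb, before BMPR2 (4.11) and ACVR2A (3.15). TGFBR2, the type II receptor that TGF-beta itself needs, was at 0.257 CPM per kb, and the coreceptors ENG and TGFBR3 at 0.27 and 0.0335. The decoy receptor BAMBI was at 31.7 CPM per kb.

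**Figure D1:**
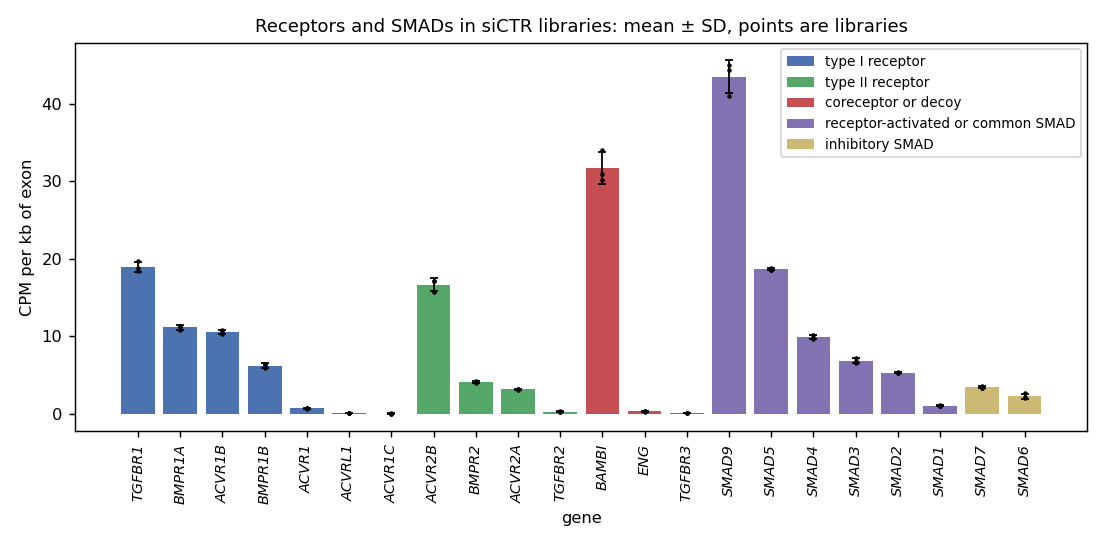
Level of each receptor and SMAD gene in the control libraries, in CPM per kb of exon; bars are means over 3 siCTR libraries, error bars are SD and points are libraries. SMAD9 (43.5) and BAMBI (31.7) stand highest, and TGFBR2 (0.257) is far below TGFBR1 (18.9).

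In siMYCN 11 of the 36 tested members passed an adjusted p of 0.05 (30.6%; limma with Benjamini-Hochberg adjustment over all 14495 genes tested), beside 35.9% of all genes: 10 were higher and 1, LTBP1, was lower. The 10 were TLL2, BAMBI, INHBA, GREM1, LTBP3, LTBP4, TGFB1, SMAD7, BMPR2 and TGFBR1. The median log2 fold change of the members was 0.13, beside 0.06 over all genes tested. In siHAND2 18 of 36 passed (50%), beside 29.9% of all genes: 17 were higher and 1, GREM1, was lower, with a median of 0.17 beside 0.04 over all genes. Between siHAND2 and siMYCN 13 of 36 differed (36.1%), beside 26.9% of all genes, 9 higher and 4 lower in siHAND2, with a median of 0.03 beside -0.01. The siMYCN split was 8 higher and 3 lower after median-ratio rescaling or quantile normalization of the libraries. Since these are shares of a chosen list, no test of the list was made; the same siCTR libraries served both comparisons against control. The counts of members higher in siHAND2 include TGFB3 and TGFBR3, which entered the test only through high siHAND2 values and so had to differ. Without siHAND2 replicate 3, 14 of 34 members passed in siHAND2 with a median of 0.11, beside 0.03 over all genes. That fit called 4290 of all genes, beside 4339 with every library. Of the member calls no longer made, TGFB3 and TGFBR3 missed the filter, and ACVR1 and SMAD2 were tested and did not pass. Between the knockdowns the member median was then -0.02, beside -0.01. It was also below 0 without siMYCN replicate 1 or 2, beside -0.009 over all genes in both fits. In siMYCN the member median was 0.08 without siMYCN replicate 3, beside 0.05 over all genes. After median-ratio rescaling it was 0.08, beside 0.005, and with quantile scaling 0.06, beside 0.00. Stromal marker levels moved with both knockdowns, more with siHAND2, and their part in these calls was not tested. By library values alone, the 3 siMYCN libraries lay above the 3 siCTR libraries for 14 of the 36 tested members and below them for 1, where 49.5% of all genes did not overlap (33.4% above). The siHAND2 libraries lay above siCTR for 20 of the 36 and below for 2, beside 42.4% of all genes without overlap. Between siHAND2 and siMYCN 12 of the 36 lay above and 5 below without overlap, beside 38.7% of all genes (21.6% below).

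**Figure D2:**
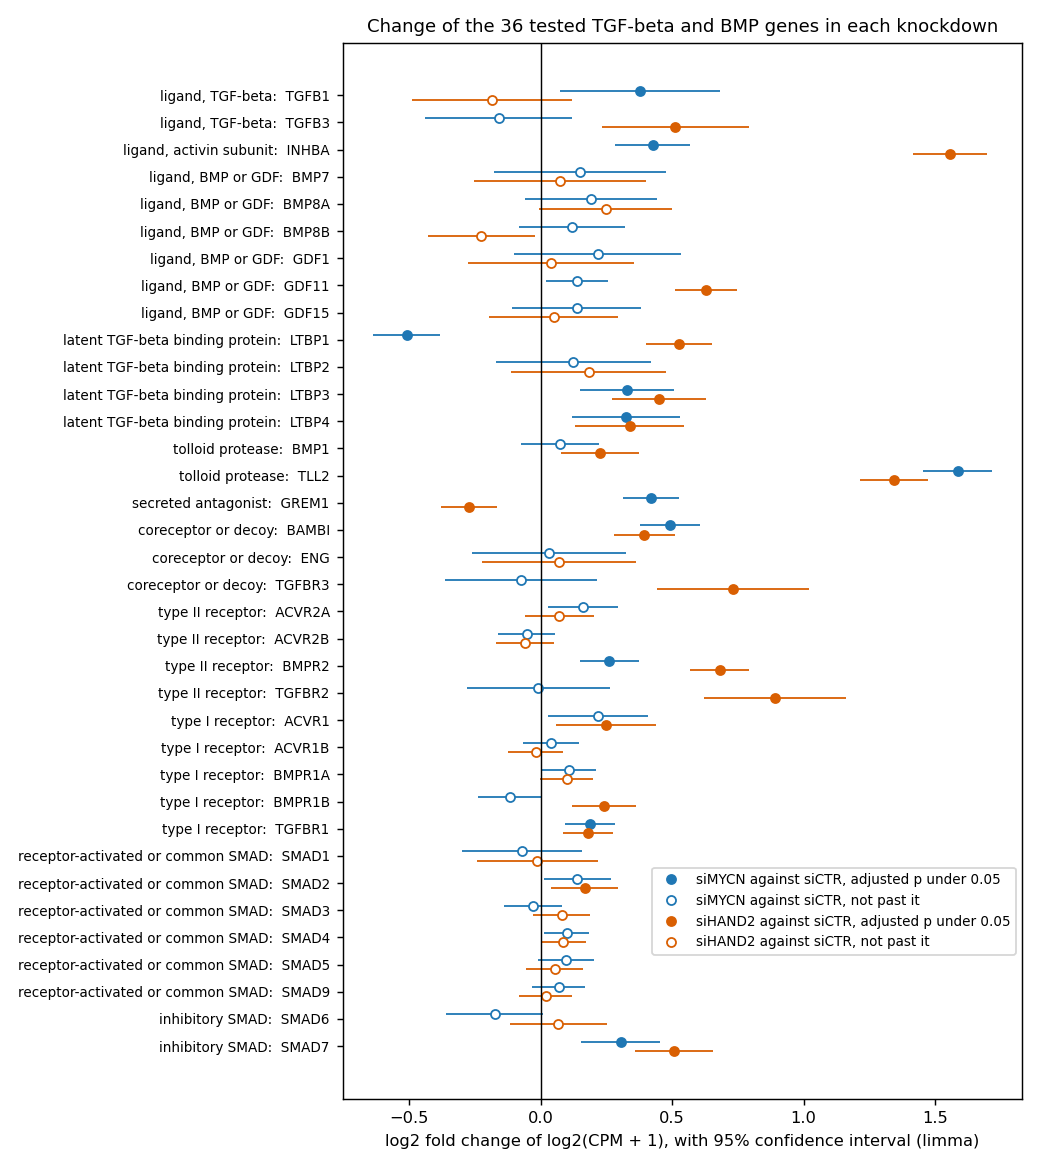
Log2 fold change of log2(CPM + 1) of the 36 tested members against siCTR, with 95% confidence intervals from limma; blue is siMYCN, orange is siHAND2, and filled points passed an adjusted p of 0.05. TLL2 is far to the right in both, INHBA mainly in siHAND2, and LTBP1 and GREM1 have opposite signs in the knockdowns.

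TLL2, on chromosome 10 (96364608 to 96513926), was the most changed protease of the tolloid group. It was at 7.73, 8.09 and 8.11 CPM in the control libraries, at 25.6, 26.5 and 25.8 with siMYCN and at 21.3, 21.3 and 22.8 with siHAND2. All 6 knockdown libraries lay above all 3 siCTR libraries, and the 3 siMYCN libraries lay above the 3 siHAND2 libraries. The mean was 3.25 times that of siCTR in siMYCN and 2.73 times in siHAND2. On the log2 scale the rises of TLL2 were 1.59 with siMYCN and 1.34 with siHAND2 (standard error 0.06 each; limma, adjusted p = 2.07e-10 and 1.22e-10), and siHAND2 minus siMYCN was -0.24 (adjusted p = 0.00727). Per kb of exon TLL2 went from 0.978 CPM in siCTR to 3.18 in siMYCN and 2.67 in siHAND2, whereas BMP1 stood at 1.55, 1.64 and 1.84. TLL2 was thus below BMP1 in siCTR and above it in both knockdowns by this measure. BMP1 stood at 10.5, 10.8 and 11.6 CPM with siCTR, at 11.5, 11.6 and 11.7 with siMYCN and at 13.5, 13.4 and 12.2 with siHAND2, a rise of 0.23 in siHAND2 (limma, adjusted p = 0.0224) that was lost after median-ratio rescaling (0.17), after quantile normalization (0.18), and without siCTR replicate 1 (0.20) or 2 (0.22) or siHAND2 replicate 1 (0.20) or 2 (0.21). TLL1 was at 0.071 CPM or less in every library.

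**Figure D3:**
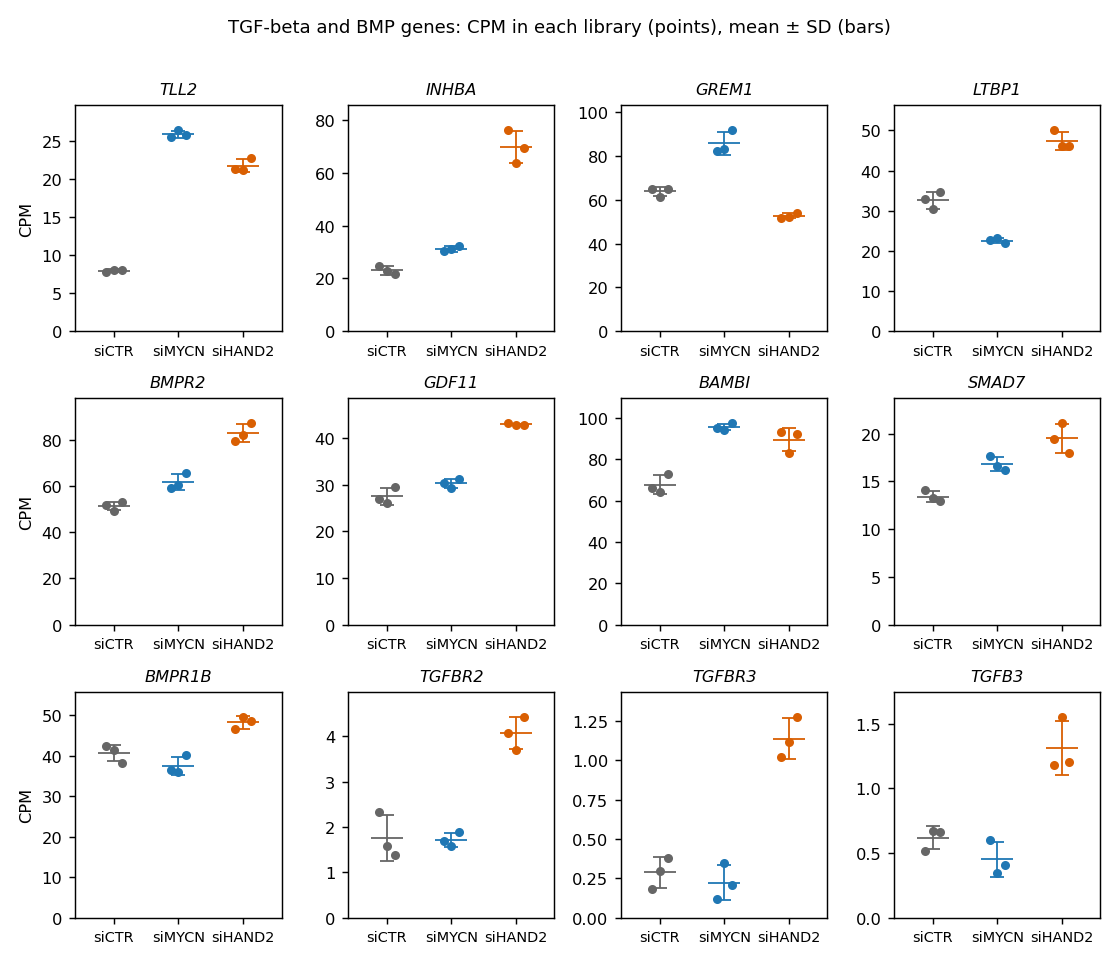
CPM of 12 members in each of the 9 libraries; points are libraries, the long bar is the group mean and the error bar the SD (n = 3 per group), with each panel's axis starting at 0. TLL2 is high in both knockdowns, INHBA, BMPR2, GDF11, TGFBR2, TGFBR3 and TGFB3 are highest in siHAND2, and LTBP1 and GREM1 lie on opposite sides of siCTR in the knockdowns.

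Among the ligands, the largest change was that of INHBA (chromosome 7, 41667168 to 41705834), which encodes the activin A subunit. INHBA was at 24.8, 22.9 and 21.5 CPM in the control libraries, at 30.2, 31.2 and 32.5 with siMYCN and at 76.1, 63.8 and 69.5 with siHAND2. The 3 groups did not overlap. It rose by 1.56 in siHAND2 (standard error 0.07; limma, adjusted p = 6.30e-11), 3.03 times the siCTR mean, and by 0.43 in siMYCN (adjusted p = 0.000127), and siHAND2 minus siMYCN was 1.13 (adjusted p = 1.52e-09). GDF11, a ligand that signals like activin, stood at 26.9, 26.0 and 29.5 CPM with siCTR, at 30.4, 29.3 and 31.2 with siMYCN and at 43.1, 42.9 and 42.9 with siHAND2. GDF11 rose by 0.63 in siHAND2 (limma, adjusted p = 3.01e-07), where all libraries lay above the rest, and its difference of 0.14 in siMYCN did not pass (adjusted p = 0.0628), although it did without siCTR replicate 3 (0.19) and without siHAND2 replicate 3. SARNP, which overlaps GDF11 on the other strand, stayed between group means of 79.0 and 80.5 CPM.

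The TGF-beta ligands themselves were near 1 CPM. TGFB1 was at 2.14, 1.76 and 1.04 CPM in the control libraries, at 2.17, 2.57 and 2.43 with siMYCN and at 1.45, 1.27 and 1.17 with siHAND2. Its rise of 0.38 in siMYCN (limma, adjusted p = 0.0489) was lost under 12 of 17 alternatives. Without siCTR replicate 3 it was 0.20, and it was also lost without siCTR replicate 2, any siMYCN replicate or siHAND2 replicate 2 (0.34 to 0.42). TGFB1 was lower in siHAND2 than in siMYCN by 0.56 (adjusted p = 0.0075), with no overlap of those libraries. It overlaps HNRNPUL1 on the other strand, at group means of 225 to 239 CPM. On the same strand it overlaps AC011462.5, at 1.11 to 1.44 CPM, so the division of reads among these genes is uncertain. TGFB3 stood at 0.52, 0.674 and 0.664 CPM with siCTR, at 0.604, 0.345 and 0.411 with siMYCN and at 1.18, 1.55 and 1.20 with siHAND2. The siHAND2 libraries of TGFB3 lay above the other 6, by 0.51 against siCTR on the log2 scale, or 0.17 and 0.97 with pseudocounts of 5 and 0.1. Because these libraries brought TGFB3 into the test, no p from the filtered fit is given, and with no filter the adjusted p was 0.00284 (limma). IFT43, which overlaps TGFB3 on the other strand, had group means of 6.44 to 7.14 CPM. BMP8B was at 6.74, 8.11 and 6.33 CPM in the control libraries, at 7.30, 7.47 and 8.44 with siMYCN and at 5.46, 6.05 and 6.11 with siHAND2. Neither difference of BMP8B from siCTR passed, although the -0.22 in siHAND2 was called after median-ratio rescaling (-0.27), with quantile scaling (-0.29) and without siCTR replicate 3 (-0.29), and it was lower in siHAND2 than in siMYCN by 0.34 (limma, adjusted p = 0.0131), a call lost without siMYCN replicate 3 (-0.29). BMP8A and BMP8B are near-identical copies, so the division of reads between them is uncertain, as is that between GDF1 and the overlapping CERS1. BMP7, BMP8A, GDF1 and GDF15 ranged from 0.672 to 2.71 CPM and passed in no comparison, but BMP8A was called in siHAND2 without siCTR replicate 1 (0.36, against 0.25).

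The latent TGF-beta binding proteins did not move alike. LTBP1 (chromosome 2, 32946953 to 33399509) stood at 32.9, 30.3 and 34.6 CPM with siCTR, at 22.6, 23.2 and 21.9 with siMYCN and at 50.1, 46.0 and 46.1 with siHAND2, so siCTR lay between the knockdowns without overlap. LTBP1 fell by 0.51 in siMYCN and rose by 0.53 in siHAND2 (standard error 0.06 each; limma, adjusted p = 7.21e-06 and 4.69e-06). The siHAND2 mean was 2.10 times that of siMYCN, a difference of 1.04 on the log2 scale (adjusted p = 9.97e-10). LTBP3 was at 18.9, 19.3 and 21.7 CPM in the control libraries, at 27.5, 24.0 and 24.5 with siMYCN and at 30.5, 28.8 and 23.9 with siHAND2, and rose by 0.33 and 0.45 (limma, adjusted p = 0.00589 and 0.0007). LTBP3 did not pass between the knockdowns (0.12), and did without siHAND2 replicate 3 (0.22). LTBP4 stood at 12.3, 14.1 and 12.1 CPM with siCTR, at 19.3, 16.1 and 13.9 with siMYCN and at 16.9, 17.2 and 15.2 with siHAND2. Its library values in siMYCN overlapped those of siCTR, and the rise there (0.32; limma, adjusted p = 0.0157) was lost after both other scalings and in fits lacking siCTR replicate 1 (0.30), lacking siCTR replicate 3 (0.29) or lacking siMYCN replicate 1 (0.21). In siHAND2 LTBP4 rose by 0.34 (adjusted p = 0.0148), a call lost without siCTR replicate 1 (0.31), siCTR replicate 3 (0.30) or siHAND2 replicate 2 (0.31). LTBP2 ranged from 2.01 to 3.26 CPM and passed in no comparison.

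The antagonist GREM1 (gremlin, which binds BMPs; chromosome 15, 32718004 to 32745106) had the opposite order to LTBP1. It was at 65.2, 61.3 and 65.2 CPM in the control libraries, at 82.3, 83.3 and 91.9 with siMYCN and at 51.8, 52.3 and 54.1 with siHAND2. The 3 groups did not overlap. GREM1 rose by 0.42 in siMYCN and fell by 0.27 in siHAND2 (standard error 0.05 each; limma, adjusted p = 1.03e-05 and 0.000714), and siHAND2 minus siMYCN was -0.69 (adjusted p = 2.37e-08). BAMBI, a decoy receptor that is itself a target of the pathway, rose in both knockdowns. BAMBI stood at 66.2, 64.5 and 72.8 CPM with siCTR, at 95.4, 94.4 and 97.5 with siMYCN and at 93.2, 83.1 and 92.3 with siHAND2, with changes of 0.49 and 0.39 (limma, adjusted p = 4.05e-06 and 4.01e-05). The difference of BAMBI between the knockdowns was -0.10, with a 95% confidence interval of -0.21 to 0.02. ENG ranged from 0.841 to 1.41 CPM and passed in no comparison.

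Type II receptors of the BMP and TGF-beta branches were higher in siHAND2, and the activin receptors were not called. BMPR2 (chromosome 2, 202376327 to 202567751), the BMP type II receptor, was at 51.6, 49.5 and 53.0 CPM in the control libraries, at 59.2, 60.7 and 65.6 with siMYCN and at 79.4, 82.3 and 87.2 with siHAND2, 3 groups without overlap. BMPR2 rose by 0.68 in siHAND2 and 0.26 in siMYCN (standard error 0.05 each; limma, adjusted p = 5.88e-08 and 0.00103), and siHAND2 minus siMYCN was 0.42 (adjusted p = 1.36e-05). TGFBR2 stood at 2.32, 1.57 and 1.38 CPM with siCTR, at 1.69, 1.57 and 1.88 with siMYCN and at 4.08, 3.70 and 4.43 with siHAND2. TGFBR2 rose by 0.89 in siHAND2 (limma, adjusted p = 5.88e-05), 2.32 times the siCTR mean, with values of 0.43 and 1.20 at pseudocounts of 5 and 0.1, and in siMYCN the difference was -0.01, with a 95% confidence interval of -0.28 to 0.26. The coreceptor TGFBR3, which presents ligand to TGFBR2, was at 0.184, 0.3 and 0.380 CPM in the control libraries, at 0.121, 0.345 and 0.206 with siMYCN and at 1.02, 1.12 and 1.28 with siHAND2. Its siHAND2 libraries lay above the other 6, by 0.73 against siCTR, a value that ranged from 0.21 to 1.70 with the pseudocount (5 or 0.1). As for TGFB3, these libraries alone brought it into the test, and with no filter the adjusted p was 5.96e-05 (limma). TGFBR2 and TGFBR3 thus remained low beside TGFBR1 even in siHAND2, at 0.594 and 0.133 against 21.5 CPM per kb.

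Among type I receptors the called changes were smaller. TGFBR1 stood at 157, 149.9 and 147 CPM with siCTR, at 169.5, 169.6 and 178 with siMYCN and at 168, 166 and 182 with siHAND2, rises of 0.19 and 0.18 (limma, adjusted p = 0.00403 and 0.00603). BMPR1B was at 42.3, 41.4 and 38.3 CPM in the control libraries, at 36.4, 35.9 and 40.1 with siMYCN and at 46.6, 49.7 and 48.5 with siHAND2. BMPR1B rose by 0.24 in siHAND2 (limma, adjusted p = 0.00426) and differed by 0.36 between the knockdowns (adjusted p = 0.000161). Its value in siMYCN was -0.12 (adjusted p = 0.124), and -0.18 and past the threshold after median-ratio rescaling (-0.17 and past it after quantile normalization). ACVR1 stood at 6.94, 6.06 and 6.55 CPM with siCTR, at 6.93, 8.36 and 8.02 with siMYCN and at 7.76, 7.45 and 8.61 with siHAND2, and its rise of 0.25 in siHAND2 (limma, adjusted p = 0.0457) was lost under 10 of 18 alternatives, among them each fit without a siCTR or siHAND2 library (0.20 to 0.29) and that without siMYCN replicate 3. ACVR1 in siMYCN (0.22) did not pass, and did without siMYCN replicate 1 (0.29). ACVR1B, BMPR1A, ACVR2A and ACVR2B passed in no comparison as fitted here. ACVR2A in siMYCN (0.16; limma, adjusted p = 0.0546) was called with the 5 CPM filter, with 2 groups alone, without siMYCN replicate 1 (0.20) and without siHAND2 replicate 3, and BMPR1A (0.11) without siHAND2 replicate 3.

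Among the SMADs, the inhibitory SMAD7 rose in both knockdowns. Of the 6 that carry the signal, 1 was called in siHAND2 (16.7%, beside 29.9% of all genes). In siMYCN and between the knockdowns 0 of 6 were called, beside 35.9% and 26.9% of all genes. SMAD1, SMAD3, SMAD4, SMAD5 and SMAD9 passed in no comparison as fitted here. SMAD4 in siMYCN (0.10; limma, adjusted p = 0.0631) was called with 2 groups alone and without siHAND2 replicate 3, and SMAD3 between the knockdowns (0.11) after quantile normalization (0.14). SMAD2 was at 193, 189 and 198 CPM in the control libraries, at 202, 207 and 230.1 with siMYCN and at 198, 217 and 238 with siHAND2. Its rise of 0.17 in siHAND2 (limma, adjusted p = 0.0449) was lost under 10 of 18 alternatives, with 0.11 after median-ratio rescaling, 0.10 without siHAND2 replicate 3 and 0.15 to 0.18 without any siCTR library or siHAND2 replicate 2; it was also lost without siMYCN replicate 2. In siMYCN SMAD2 did not pass (0.14; limma, adjusted p = 0.0821), and did with 2 groups alone and without siHAND2 replicate 1 or 3. SMAD7, which is induced by the signal and blocks its receptors, stood at 14.1, 13.2 and 12.9 CPM with siCTR, at 17.6, 16.6 and 16.2 with siMYCN and at 19.5, 21.1 and 18 with siHAND2, 3 groups without overlap. SMAD7 rose by 0.30 in siMYCN and 0.51 in siHAND2 (standard error 0.07 each; limma, adjusted p = 0.00316 and 4.56e-05). The gap of SMAD7 from siMYCN to siHAND2, 0.20 (limma, adjusted p = 0.0436), was lost under 10 of 18 alternatives, among them the fits without siCTR replicate 1 or 2, siMYCN replicate 2 (0.19) or 3 (0.18) and siHAND2 replicate 1 (0.20) or 2 (0.15). SMAD6, the other inhibitory SMAD, ranged from 15.7 to 22.4 CPM and passed in no comparison as fitted here. It lay close to the threshold between the knockdowns (0.24; limma, adjusted p = 0.0506), and was called there under 9 of 18 alternatives, among them both other scalings, the 5 CPM filter and the fits without siCTR replicate 1 or 3, siMYCN replicate 1 or siHAND2 replicate 1 (0.24 to 0.29). With both other scalings SMAD6 was also called lower in siMYCN (-0.23 and -0.26, against -0.17).

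Other genes of the pathway were read from lists of ligands, receptors, secreted modulators, intracellular regulators, response genes and tolloid substrates. Of the 79 that are not members, 65 were in the table and 53 were tested. In siMYCN 21 were higher and 6 lower (50.9% called, beside 35.9% of all genes), and in siHAND2 23 were higher and 6 lower (54.7%, beside 29.9%). Among the response genes, which BMP or TGF-beta signals are known to induce, 12 of 17 were tested; 7 were higher in siMYCN and 9 in siHAND2 (limma), beside 24.5% and 18.1% of all genes. The tested response genes with a negative value were JUNB and SNAI2 in siMYCN and KLF10, JUNB and HEY1 in siHAND2, and none of these passed. The median log2 fold change of the response genes was 0.24 in siMYCN and 0.56 in siHAND2. PMEPA1, a TGF-beta target that dampens SMAD signalling, was at 30.4, 28.8 and 27.2 CPM in the control libraries, at 37, 34.0 and 35.5 with siMYCN and at 49.4, 43.1 and 46.5 with siHAND2, rises of 0.29 and 0.67 (limma, adjusted p = 0.00138 and 4.09e-07). HEY1, a target of BMP and Notch, stood at 18.1, 18.3 and 19.1 CPM with siCTR, at 24.1, 30.4 and 31.5 with siMYCN and at 18.2, 17.2 and 19.8 with siHAND2, a rise of 0.60 in siMYCN (adjusted p = 5.17e-05) and a difference of -0.01 in siHAND2.

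The ID genes, inhibitors of helix-loop-helix factors and classic BMP targets, were picked for naming after their values were seen. ID1 measured 7.88 ± 1.27, 8.98 ± 1.36 and 13.4 ± 1.88 CPM in siCTR, siMYCN and siHAND2, ID2 49.8 ± 6.28, 57.2 ± 3.39 and 74.4 ± 5.37, ID3 11.6 ± 3.00, 13.2 ± 1.49 and 25.7 ± 4.69 and ID4 0.993 ± 0.145, 1.60 ± 0.424 and 5.65 ± 0.347 (SD, n = 3 libraries). In siHAND2 all 4 lay above siCTR without overlap, with rises of 0.69, 0.58, 1.10 and 1.74 (limma, adjusted p = 0.000364, 2.70e-05, 2.09e-05 and 2.36e-08), which passed under each alternative. The siHAND2 replicate 3 library, which stood apart, had the lowest ID1, ID2 and ID3 of its group, and without it the rises were 0.80, 0.64, 1.24 and 1.76. In siMYCN ID1 and ID3 did not pass. The siMYCN rise of ID2 (0.20, adjusted p = 0.0469) was lost under 9 of 18 alternatives, with 0.12 without siCTR replicate 2 and 0.18 to 0.20 without siCTR replicate 1, siMYCN replicate 1 or 3 or siHAND2 replicate 2. That of ID4 (0.37, limma, adjusted p = 0.0266) was lost under 6 of 18, with 0.24 without siMYCN replicate 3, 0.35 without siCTR replicate 1 and 0.34 without siCTR replicate 3. The sum of the stromal markers, of which PDGFRA is the largest part, moved in the same direction as these genes in siHAND2 (628 to 712 CPM against 295 to 299). THY1, on that list, was called lower. The part of the stromal markers in the result was not tested.

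**Figure D4:**
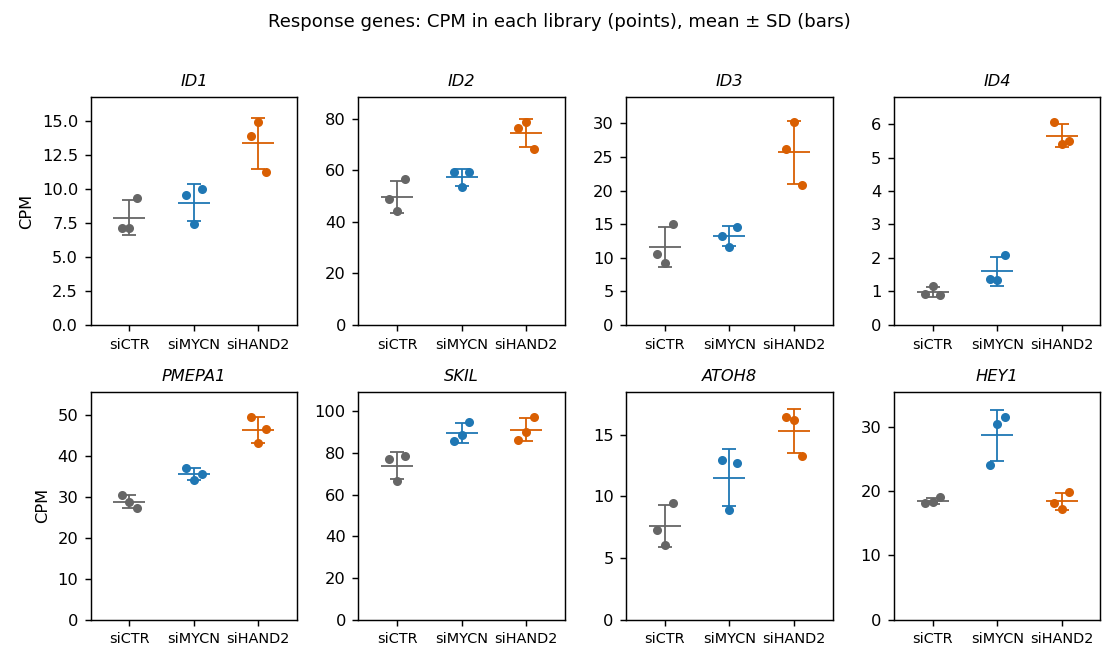
CPM of 8 response genes in each of the 9 libraries; points are libraries, the long bar is the group mean and the error bar the SD (n = 3 per group), with each axis starting at 0. ID1, ID2, ID3 and ID4 are highest in siHAND2, and HEY1 is highest in siMYCN.

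Among the substrates and enhancers of tolloid proteases, 8 of 14 were tested, and 3 were higher and 2 lower in siMYCN against 5 and 2 in siHAND2, beside 35.9% and 29.9% of all genes called. COL1A2 and COL3A1, higher in both, are also on the stromal marker list, whose part in the result was not tested. COL1A2, a fibrillar procollagen chain, was at 1.53, 1.65 and 1.80 CPM in the control libraries, at 4.15, 4.41 and 4.69 with siMYCN and at 18.3, 15.2 and 14.3 with siHAND2. COL1A1, on the same lists, missed the filter and did not rise, with means of 0.720, 0.507 and 0.363 CPM in siCTR, siMYCN and siHAND2. PCOLCE, which enhances procollagen cleavage by tolloid proteases, rose by 0.42 in siMYCN and 0.28 in siHAND2 (limma, adjusted p = 6.12e-05 and 0.00229), from 175 ± 3.10 CPM to 235 ± 8.86 and 214 ± 23.4. LOX, a collagen crosslinking enzyme that the proteases activate, fell by 0.86 and by 0.68 (adjusted p = 1.21e-06 and 1.22e-05), from 17.1 ± 1.01 CPM to 8.98 ± 0.533 and 10.3 ± 1.19. The substrates therefore did not share a direction. CITED2, a transcriptional coregulator, was lower in siMYCN and higher in siHAND2, at 6.67 ± 0.0579, 4.87 ± 0.132 and 11.1 ± 0.984 CPM (-0.39 and 0.65; adjusted p = 0.00165 and 1.53e-05).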

How the data were processed

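The authors deposited 1 table with a CPM column for each of the 9 libraries, with a constant of 0.0001 in every value, so that the columns sum to between 1000002.4 and 1000002.6. STAR 2.5.1 and Partek are named in the submitters' processing notes; the counting rule, its use of strand and the annotation are not given in the sources used here. The notes name hg19, but table starts equalled RefSeq GRCh38.p14 starts for 8208 of 18213 symbols and GRCh37 starts for 149 of 18474, so positions are given as GRCh38, counted from 1. Of the 20 members called in any comparison, 8 overlap a gene on the other strand, whose reads may not be separable.

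Of the low values, 79.3% to 80.8% were whole multiples of the smallest step (within 0.02 of a step), so no count model was used. Values were tested as log2(CPM + 1), which understates the change of low genes, for the 14495 genes that reached 1 CPM in 3 or more libraries. The 3 groups entered 1 limma fit (limma 3.58.1, R 4.3.3, eBayes with intensity trend, two-sided tests, Benjamini-Hochberg over all genes, threshold 0.05). On simulated data for siMYCN against siCTR, 97.5% of 198 genes changed by 1 on the log2 scale were called and 83.3% of 198 changed by 0.5. Of the calls, 15 of 208 and 11 of 176 were false. The simulation took a fixed dispersion (spread beyond counting) of 0.005 and 200 changed genes, whereas 5209 were called in siMYCN. It therefore does not give the sensitivity of the real comparison. Library values are given for members called in any comparison with a mean of 5 CPM or a change of 0.5 or more, and of the pathway lists the 4 genes with the smallest p per comparison against siCTR are named (mean of 5 CPM or more). The members and lists were chosen with earlier results of these data known. Alternatives were pseudocounts of 0.1 and 5, no filter and a filter of 5 CPM, median-ratio and quantile scaling, 2 groups alone, no trend, a replicate block and each library left out.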

Additional observations from a re-analysis of the deposited data

How the results depend on the processing

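Under every alternative in which they were tested, 9 of the 11 member calls in siMYCN held (all but LTBP4 and TGFB1). So did 14 of 18 in siHAND2 (all but ACVR1, BMP1, LTBP4 and SMAD2) and 11 of 13 between the knockdowns (all but BMP8B and SMAD7). The counts of 14 and 11 both include TGFB3 and TGFBR3, which the filter chose. TGFB3 and TGFBR3 could not be tested without a siHAND2 library, because they then miss the filter. With a filter of 5 CPM, TGFB1 and TGFBR2 were not tested either. Calls both tested and held under every alternative were 9 in siMYCN, 11 in siHAND2 and 7 between the knockdowns. Leaving out 1 library at a time gave 10 to 16 member calls in siMYCN, 12 to 18 in siHAND2 and 10 to 14 between the knockdowns. Over all genes the same fits called 4013 to 5854, 3075 to 4290 and 2909 to 3940. Fits without a siHAND2 library tested 34 members and the others 36. Without the filter FST (0.85, adjusted p = 5.42e-05, limma), TGFB2 (0.42), GDF7 (0.32) and GDF10 (-0.24) were also called in siHAND2. Replicate numbers are shared across groups. Same-numbered libraries deviated together (correlation over 0.1) in 6 of 9 pairs, beside 2 of 18 pairs with different numbers. Not every library matched its own number best, and the labels do not name the number as a pairing, so the main fit used none. With the replicate block 16, 18 and 14 members and 5895, 5089 and 4689 genes were called in siMYCN, siHAND2 and between the knockdowns. All-gene counts in the main fit were 5209, 4339 and 3892. The block added ACVR2A, BMPR1A, GDF11, SMAD2 and SMAD4 in siMYCN and SMAD6 between the knockdowns. Scaling moved the share of higher calls among all genes in siMYCN from 68.3% to 49.7% (median-ratio) and 49.3% (quantile), and in siHAND2 from 60.6% to 42.1% and 47.8%. At this depth, members under 0.0917 to 0.142 CPM (3 reads) cannot be told from absent, counting error only.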

Other observations

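BMPER, a secreted BMP modulator outside the rule for named genes, was picked after its values were seen because its order resembled that of GREM1. Of the 11 tested secreted modulators in its list, 6 were higher and 1 lower in siMYCN, beside 35.9% of all genes called. In siHAND2 4 were higher and 3 lower, beside 29.9% of all genes called. TWSG1 and NBL1 were higher in both. BMPER stood at 2.84, 2.28 and 2.70 CPM with siCTR, at 7.21, 7.67 and 8.22 with siMYCN and at 1.51, 1.55 and 1.84 with siHAND2, so the 3 groups did not overlap. It rose by 1.27 in siMYCN and fell by 0.45 in siHAND2 (limma, adjusted p = 1.84e-07 and 0.0034).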
